A study of Mus musculus with 696 samples.

Results

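The stefin A genes of the mouse form a dense cluster on chromosome 16, and 6 of its members, Stfa1, Stfa2, Stfa3, Csta3, Cstdc5 and Cstdc6, are described here among the 15652 genes of the count table. The genes were chosen by their counts over the 4 time points, which were known when the list of names was made, so their own levels and folds are a description. Counts of members past a threshold use the same columns as that choice. In every comparison they stand only as a description, and nothing is read from them. The share of all genes stands beside the counts of the main edgeR fit. Counts under other fits stand without that share and show only how the calls depend on the fit. The table holds 696 cells sorted as tdTomato+ from the tail epidermis of adult female mice of a mixed CBA and C57BL/6 background, sequenced cell by cell with Smart-seq2. All mice carried Lrig1-EGFP-ires-CreERT2 and Rosa26-fl/STOP/fl-tdTomato and had hydroxytamoxifen applied to the tail before any wound, so every group, 0w included, holds descendants of cells that expressed Lrig1 at labelling. The groups were 0w (unwounded, 179 cells), 1w pw1 (1 week after a first full-thickness wound, 168 cells), 8w pw1 (8 weeks after it, 172 cells) and 1w pw2 (1 week after a second wound at the same place, 9 weeks after the first, 177 cells). Cells came from a zone that took in the wound bed and distant hair follicles together, and these 2 sources cannot be told apart in the table.

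Each group was 2 plates of cells, and the plate is the replicate throughout. Plate totals ran from 12293182 to 19760820 estimated counts, with a median of 132595 per cell (3551 to 1895079). Each plate belonged to a single time point, so plate processing and time point cannot be told apart. By the paper's schedule, the mice of 8w pw1 and 1w pw2 were also older and longer past labelling than those of 0w. The count table holds no unwounded group of their age, so age and wound history cannot be told apart either. The paper describes 2 independent experiments, each with several biological replicates. The cell titles carry a further label, RepB at 8w pw1 and RepC at 0w, which names no animal. No label ties a plate to particular animals, so spread and p-values cover the difference between plates only. The sebaceous gland list stood apart on 0w replicate 2, with a summed level over its 7 genes of 7646 CPM (counts scaled to a common plate total) against 903 on 0w replicate 1, and on replicate 2 of 8w pw1, with 3856 CPM against 954 on replicate 1. The other plates lay between 586 and 849.5 CPM. The labelled cell type, keratinocyte, was checked against its keratins: Krt14 or Krt5 was detected in 141 of the 146 cells without any stefin at 0w and in 64 of the 73 cells with 3 or more stefins at 1w pw1.

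Stefins, or type 1 cystatins, are small inhibitors of papain-like cysteine proteases such as cathepsins B, H, L and S. Unlike the type 2 cystatins they lack a signal peptide and act mainly inside the cell. In human skin the stefin A gene CSTA is a keratinocyte gene whose product is built into the cornified envelope, the protein shell of the outermost cells. In the mouse the locus has been duplicated many times, and its members are also known from neutrophils and other myeloid cells.

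The copies lie within 245 kb of GRCm38, each as a protein-coding gene of 3 exons in the GENCODE models. Csta3 (chr16:36210403-36217788) and Stfa1 (chr16:36276951-36285373) run on the plus strand. Cstdc6 (chr16:36321665-36334332), Cstdc5 (chr16:36359382-36367748), Stfa2 (chr16:36403992-36408457) and Stfa3 (chr16:36450537-36455392) run on the minus strand. Stfa1 and Cstdc5 differ at 6 of 294 aligned coding bases (98.0% identical), Cstdc5 and Cstdc6 at 14 (95.2%) and Stfa1 and Cstdc6 at 19 (93.5%). Csta3 is 86.7% to 88.4% identical to these 3, while Stfa2 and Stfa3 share 81.1% with each other and 74.7% to 79.8% with the rest. The same stretch of 75 bases, the length of a sequencing read here, is shown for all 6. Among the coding stretches of that length without a gap, it is the one with the most positions that vary. In it 35 bases vary among the 6 genes and 40 are the same in all, so the copies are more alike elsewhere. It covers coding bases 198 to 272 of Cstdc5, read from the GENCODE transcripts 5′ to 3′, and capitals mark bases that differ from Cstdc5.
Cstdc5: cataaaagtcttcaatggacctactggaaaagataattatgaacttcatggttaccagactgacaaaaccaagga
Stfa1: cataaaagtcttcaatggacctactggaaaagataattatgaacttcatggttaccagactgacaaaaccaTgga
Cstdc6: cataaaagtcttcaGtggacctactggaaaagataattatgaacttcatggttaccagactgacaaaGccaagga
Csta3: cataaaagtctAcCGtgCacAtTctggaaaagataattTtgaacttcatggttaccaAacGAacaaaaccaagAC
Stfa3: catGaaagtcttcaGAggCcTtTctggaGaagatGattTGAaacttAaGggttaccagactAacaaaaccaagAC
Stfa2: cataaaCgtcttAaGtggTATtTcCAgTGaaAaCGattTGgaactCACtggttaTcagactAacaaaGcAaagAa
Stfa1 differs from Cstdc5 at 1 of these bases and Cstdc6 at 2, against 12 in Csta3, 16 in Stfa3 and 24 in Stfa2.

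**Figure D1:**
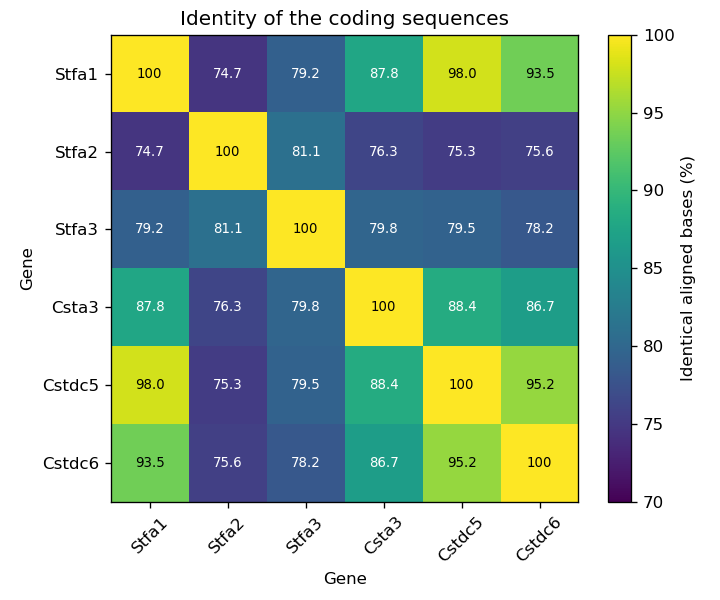
Heat map of the identity of the coding sequences for each pair of the 6 genes, as the percent of aligned bases that are identical (colour and number in each square). Stfa1, Cstdc5 and Cstdc6 form a block of 93.5% to 98.0%, and Stfa2 and Stfa3 stand outside it.

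This likeness bears on the counts themselves. Of the 545 windows of 75 bases along the Cstdc5 transcript, 64.2% occur in no transcript of another gene in the GENCODE models, against 79.6% for Cstdc6, 89.3% for Stfa1, 94.2% for Stfa2 and 100% for Stfa3 and Csta3. Cstdc5 shared 58 such windows with Stfa1 and 64 with Cstdc6, and Stfa2 shared 23 with its neighbour Stfa2l1. Only 350 of the 545 Cstdc5 windows were its own, so others were shared with genes outside those compared here. The authors' estimates divide reads that fit several transcripts, which leaves counts that are not whole numbers. Among the cells above 0, the count was not whole in 91.1% for Cstdc6, 88.9% for Stfa1 and 61.5% for Cstdc5, but in 19.4% for Stfa2, 10% for Csta3 and 1.13% for Stfa3. In Cstb, a stefin on another chromosome, it was whole in every cell above 0. The split among Stfa1, Cstdc5 and Cstdc6 is therefore uncertain, whereas Stfa3 and Csta3 were counted almost free of it.

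The start regions of the copies are alike as well. The stretch from 80 bases before a shared TTTAAA to 3 bases after it is shown for the 5 members with an entry in the RefSeq promoter table (GRCm38.p6), to let the copies be compared around their RefSeq starts. In the GENCODE models given above, the stretches of Stfa1 and Cstdc5 lie inside the gene, that of Stfa2 overlaps its first bases, and those of Stfa3 and Csta3 lie before it. Capitals mark TTTAAA.
Stfa1, chr16:36277038-36277126, plus strand: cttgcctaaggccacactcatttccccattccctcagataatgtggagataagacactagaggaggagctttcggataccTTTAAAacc
Cstdc5, chr16:36367571-36367659, minus strand: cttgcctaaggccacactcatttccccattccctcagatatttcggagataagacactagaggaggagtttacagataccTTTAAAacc
Csta3, chr16:36210246-36210334, plus strand: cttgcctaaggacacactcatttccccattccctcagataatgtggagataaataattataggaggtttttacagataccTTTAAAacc
Stfa3, chr16:36455415-36455503, minus strand: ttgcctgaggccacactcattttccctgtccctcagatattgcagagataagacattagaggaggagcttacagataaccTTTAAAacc
Stfa2, chr16:36408384-36408472, minus strand: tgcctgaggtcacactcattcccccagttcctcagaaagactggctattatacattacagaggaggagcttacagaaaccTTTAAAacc
Stfa1 and Cstdc5 were 93.3% identical over this stretch, and the other pairs ranged from 73.6% for Stfa2 and Csta3 to 88.9% for Stfa3 and Cstdc5. TTTAAA began 29, 30 and 31 bases upstream of the RefSeq start in Stfa2, Stfa1 and Stfa3, and 9 and 77 bases upstream in Cstdc5 and Csta3, whose starts are placed differently.

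Searched on both strands, TTTAAA occurred in the promoters of all 5 members and in 12.1% of the 32851 promoters of the table. The longest run common to the 5, ACTCAGCATTTCC, was in 9 promoters of the table (0.0274%). AGATAA, the core of the GATA motif, was in 4 of the 5 (Stfa1, Stfa3, Csta3 and Cstdc5) and in 9.99% of all promoters. TTGCNNAA, a C/EBP-type motif, was in 3 (Stfa1, Csta3 and Cstdc5) and in 9.56% of all. TATAAA was in none of the 5, against 12.4% of all promoters. The AP-1 motif TGANTCA was in none, against 6.75% of all. The STAT motif TTCNNNGAA was in none, against 7.02% of all. These matches are letters within 250 bases before a start, and no binding was measured.

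In unwounded skin the cluster was nearly silent but for Stfa3. Levels are CPM of a plate's summed counts after scaling between plates, and in such sums fewer expressing cells and less RNA per cell cannot be told apart. Stfa3 stood at 94.8 and 78.6 CPM on the 2 plates of 0w and made up 90.1% and 99.9% of the counts of the 6 genes. Cstdc5 was at 10.4 and 0.108 CPM and Cstdc6 at 0.0519 and 0 CPM. Stfa1, Stfa2 and Csta3 had no count in any of the 179 cells, which allows a share of positive cells of up to 1.68% (counting error only). The 0w level rested on few cells: the top cell held 62.2% and 79.8% of the Stfa3 counts of its plate, and without it Stfa3 was at 35.9 and 15.9 CPM.

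At 1w pw1 all 6 genes were high on both plates. Cstdc5 was at 13820.3 and 5269 CPM, Stfa3 at 3141 and 1647 CPM and Stfa1 at 1877 and 875.5 CPM. Csta3 was at 338 and 45.1 CPM, Cstdc6 at 192 and 68.7 CPM and Stfa2 at 46.3 and 48.4 CPM. Replicate 1 was the higher plate for each gene except Stfa2. Together the 6 genes reached 19415 and 7953 CPM, which was 1.57% and 0.687% of all counts of the plates, and up to 12.02% of the counts of a cell.

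By 8w pw1 the cluster had come down, but to another mixture than before it. Cstdc5 was at 330.5 and 77.9 CPM and Stfa1 at 83.9 and 5.49 CPM, both above their 0w plates. Stfa3 was at 46.1 and 12.5 CPM, below both 0w plates. Stfa2 (0.0720 and 0.131 CPM), Csta3 (0.144 and 0 CPM) and Cstdc6 (0.288 and 0.0943 CPM) rested on at most 4 counts a plate. The sum of the 6 was 461 and 96.1 CPM against 105 and 78.7 CPM at 0w, and replicate 2 of 8w pw1 lay between the 2 plates of 0w.

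At 1w pw2 the levels were again high, below those of the first. Cstdc5 was at 2661 and 2566 CPM, Stfa3 at 634 and 392 CPM and Stfa1 at 285 and 464 CPM. Cstdc6 was at 25.9 and 22.5 CPM, Stfa2 at 10.1 and 17.6 CPM and Csta3 at 4.41 and 22.6 CPM. The top cell held 83.5% of the Csta3 counts of replicate 2, and without it that plate was at 3.72 CPM. The sum, 3621 and 3485 CPM, differed little between the plates.

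**Figure D2:**
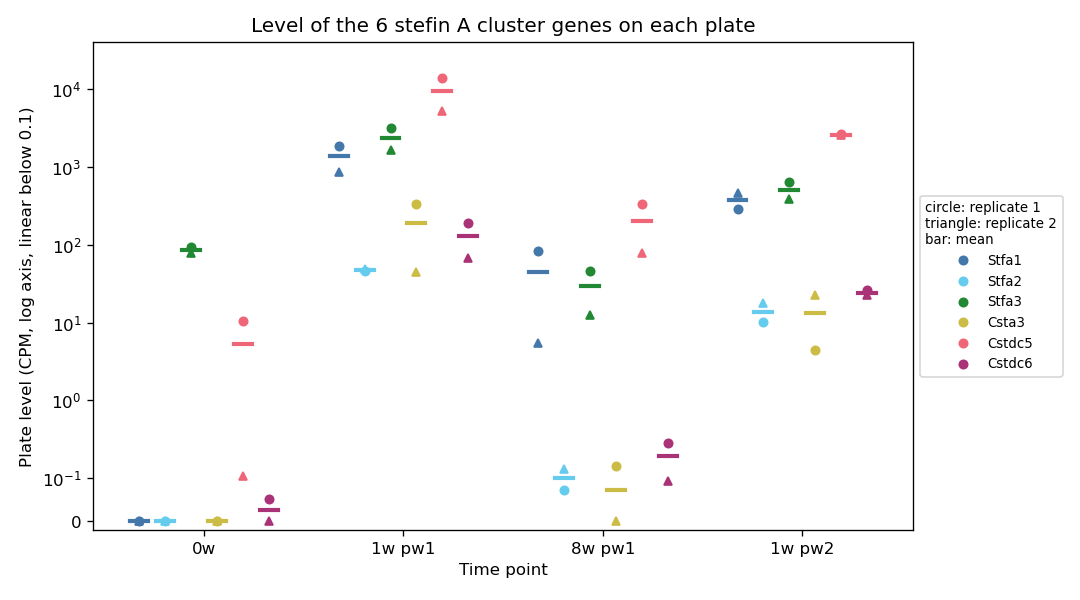
Level of each gene (CPM, log axis that is linear below 0.1) on each plate at the 4 time points, with circles for replicate 1, triangles for replicate 2 and bars for the mean. Stfa3 alone is above 50 CPM at 0w, and Cstdc5 is the highest gene at each later time point.

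Set per kilobase of transcript, which allows genes to be compared, the leading gene changed once, from Stfa3 at 0w to Cstdc5 at the later time points. At 0w Stfa3 led with 230 and 191 CPM per kb, ahead of Cstdc5 with 16.8 and 0.174. At 1w pw1 the order was Cstdc5 (22327 and 8511 CPM per kb), Stfa3 (7624 and 3997), Stfa1 (3042 and 1419), Csta3 (1150.0 and 153), Cstdc6 (497 and 178) and Stfa2 (98.3 and 103), and only Csta3 and Cstdc6 overlapped among neighbours in it. At 1w pw2 Cstdc5 (4299 and 4146 CPM per kb), Stfa3 (1538 and 951) and Stfa1 (462 and 752) kept their places without overlap, while Cstdc6, Csta3 and Stfa2 overlapped in turn. At 8w pw1 Cstdc5 (534 and 126 CPM per kb) overlapped with Stfa1 (136 and 8.90), and Stfa1 with Stfa3 (111.8 and 30.4), while the other 3 were all below 1 CPM per kb. The Csta3 model holds coding sequence alone, so its level per kb is set over a shorter length than the others.

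The make-up of the cluster shows the same turn. Cstdc5 went from 9.87% and 0.137% of the member counts at 0w to 71.2% and 66.3% at 1w pw1, 71.7% and 81.02% at 8w pw1, and 73.5% and 73.6% at 1w pw2. Stfa3 held 16.2% and 20.7%, 9.995% and 13.0%, and 17.5% and 11.2% at those 3 time points. Because Stfa1, Cstdc5 and Cstdc6 may trade reads, their sum was taken too, an addition made after seeing the counts. It was 10.4 and 0.108 CPM at 0w, then 15889 and 6213, 415 and 83.4, and 2973 and 3053 CPM at the later time points, so the turn from Stfa3 does not depend on how reads were divided among the 3. Reads that Cstdc5 shares with genes outside the 3 are not covered by this sum.

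**Figure D3:**
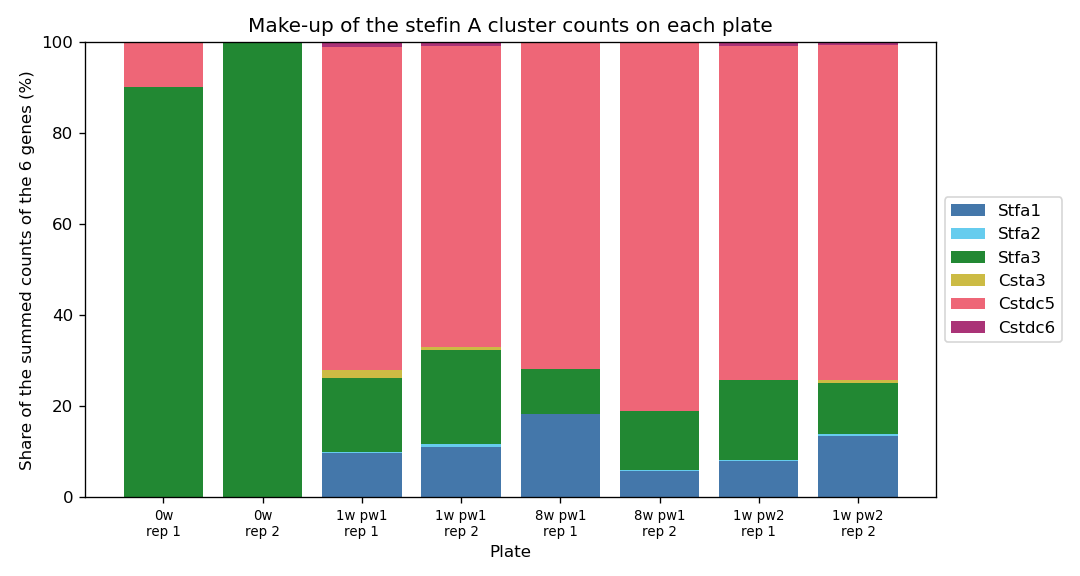
Share of the summed counts of the 6 genes taken by each gene on each of the 8 plates, as stacked bars in percent. Stfa3 fills 90.1% and 99.9% of the 0w bars and Cstdc5 66.3% to 81.02% of the others.

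Between 0w and 1w pw1 the sum of the 6 genes differed 149-fold, from a mean of 92.0 CPM (SD 18.8, n = 2 plates) to 13684 CPM (SD 8105, n = 2). Lists of keratinocyte genes differed between the same plates: the suprabasal list stood at 2758 and 3389 CPM at 0w and at 43178 and 42813 CPM at 1w pw1, and the wound-activated keratin list at 50.7 and 52.3 CPM against 13359.5 and 7470.2 CPM. Their part in the stefin levels was not tested. The ratio of the sum was 86.5 without 1w pw1 replicate 1 and between 130 and 211 without any other plate of the 2 groups. Stfa3 was 27.6-fold higher at 1w pw1 (log2 fold change 4.79, SE 0.72) and Cstdc5 1819-fold (10.83, SE 1.82). Without the top cell of each plate the mean of Stfa3 was 25.9 CPM at 0w in place of 86.7 CPM. At 1w pw1 it was then 1884 in place of 2394 CPM, so the Stfa3 ratio rests in part on single cells of 0w. The Cstdc5 ratio was 1004 without 1w pw1 replicate 1 and 919 without 0w replicate 2, and against 0w replicate 2 alone, where its base is 2 counts, 88469. For genes at 0 at 0w the ratio is a lower bound, set against 3 counts over both plates: at least 17338-fold higher for Stfa1, 2414-fold for Csta3 and 597-fold for Stfa2. Without 1w pw1 replicate 1 the bounds were 11032, 568 and 610, and without replicate 2 Csta3 came to 4259.8. Cstdc6, with 1 count at 0w, had a ratio of 4808 with a 95% counting interval of 863 to 189951. That ratio was 2647 and 7413 with the first and the second plate of 1w pw1 left out, 2515 without 0w replicate 2, and without 0w replicate 1, which held the count, at least 807.

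In that comparison all 6 members passed an adjusted p below 0.05 and a fold above 2 upwards in edgeR, as did 0.404% of the 13853 genes tested. All 6 had plates that did not overlap, as did 23.0% of genes in that direction. With 0w replicate 2 left out 2 of the 6 still passed (Stfa2 and Cstdc6), with 0w replicate 1 left out 3 (Stfa2, Cstdc5 and Cstdc6), and with 1w pw1 replicate 1 left out 3 (Stfa1, Stfa2 and Cstdc6).

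Between 0w and 8w pw1 the members parted, and their sum was 3.03-fold higher, or 1.05-fold with replicate 1 of 8w pw1 left out and 5.01-fold with replicate 2 left out. On the plates of 8w pw1 the suprabasal list was at 5811 and 5192 CPM, against 2758 and 3389 at 0w. The wound-activated keratin list was at 377 and 390 CPM, against 50.7 and 52.3. The upper follicle duct list (Krt79, Gata6, Cst6 and Krt17) was at 13863 and 17320 CPM, against 6569 and 5576. The part of these lists in the stefin levels was not tested. Cstdc5 was 38.9-fold higher at 8w pw1 (log2 fold change 5.28, SE 1.45) and Stfa1 at least 563-fold, while Stfa3 was at 0.338 of its 0w level (log2 fold change -1.57, SE 0.63). With replicate 1 of 8w pw1 left out the 3 values came to 14.8, 69.2 and 0.145, and with replicate 2 left out to 63.0, 1057 and 0.532. Cstdc5 came to 19.7 without 0w replicate 2 and to 1893 without 0w replicate 1, over 2 counts. Without the top Stfa3 cell of each plate, Stfa3 was at 35.9 and 15.9 CPM at 0w and at 29.3 and 4.63 CPM at 8w pw1, and the plates overlapped. Between plates of the same replicate number it was lower at 8w pw1 in each case. For Stfa1 a single cell held 65.9% of the counts on replicate 1 of 8w pw1, and without the top cell of each plate Stfa1 was at 28.6 and 4.12 CPM there, a mean of 16.3 in place of 44.7 CPM. Cstdc5 was then at 206 and 53.4 CPM, a mean of 129.5 in place of 204 CPM. In edgeR 0 of the 6 passed, in a comparison where 0% of genes did, 4 of the 6 had an unadjusted p below 0.05 as against 6.47% of genes, and DESeq2 passed Stfa1. Without 8w pw1 replicate 2 edgeR also passed Stfa1. Stfa1, Stfa2, Cstdc5 and Cstdc6 did not overlap with 0w and were higher (17.8% of genes), and Stfa3 did not overlap and was lower (15.6%). Stfa2 rested on 1 and 2 counts at 8w pw1 and Cstdc6 on 4 and 1.4. The Cstdc6 ratio was 7.04, with a counting interval of 0.724 to 305.9 that covers no change.

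Against 0w the second wound gave a sum 38.6-fold higher at 1w pw2. Stfa3 was 5.91-fold higher (log2 fold change 2.56, SE 0.65) and Cstdc5 498-fold (8.96, SE 1.70), or 252-fold without 0w replicate 2 and 24228-fold, over 2 counts, without 0w replicate 1. Stfa1 was at least 4720-fold higher, Stfa2 at least 175-fold and Csta3 at least 170-fold, the last at least 284-fold and 55.6-fold with the first and the second plate of 1w pw2 left out. Cstdc6 had a ratio of 908, with a counting interval of 162 to 35889. Its ratio was 467 without 0w replicate 2, and at least 150 without 0w replicate 1. Without its top cell on each plate, Csta3 was at a mean of 3.19 CPM at 1w pw2 in place of 13.5 CPM. The mean of Stfa3 without its top cells was 25.9 CPM at 0w in place of 86.7, and 354 CPM at 1w pw2 in place of 513. Stfa1, Stfa2 and Cstdc6 passed in edgeR, 3 of 6, where 0.267% of genes passed, 0.238% upwards and 0.0289% downwards. With the replicate number as a block 5 passed, with DESeq2 6, without 0w replicate 1 a single gene (Cstdc5) and without 0w replicate 2 none.

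Against 8w pw1, the state just before the second wound, the sum at 1w pw2 was 12.8-fold higher (37.0 with replicate 1 of 8w pw1 left out, 7.71 with replicate 2 left out). Cstdc5 was 12.8-fold higher (log2 fold change 3.68, SE 1.34), Stfa3 17.5-fold (4.13, SE 0.70), Stfa1 8.38-fold (3.07, SE 1.04) and Cstdc6 127-fold (7.07, SE 0.93). Set against replicate 2 of 8w pw1 alone the values were 33.6, 40.9, 68.3 and 257 (the last over 1.4 counts), and against replicate 1 alone 7.91, 11.1, 4.47 and 84.3. Stfa2 and Csta3 rested on 3 and 2 counts at 8w pw1, with ratios of 140 (counting interval 47.5 to 680.2) and 214 (59.0 to 1773), intervals that cover counting error only. The Csta3 ratio was 61.2 without 1w pw2 replicate 2 and 93.6 without replicate 2 of 8w pw1, and without replicate 1 of 8w pw1, where no count is left, it was at least 68.9. In edgeR 0 of 6 passed where 0.00722% of genes did. At an unadjusted p below 0.05 the number was 6 (7.94% of genes), the replicate block passed 3 (Stfa2, Stfa3 and Cstdc6) and DESeq2 5. Leaving out either plate of 0w passed 2, Stfa2 and Cstdc6.

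Between the wounds, the sum at 1w pw2 was 0.260 of that at 1w pw1, or 0.447 without 1w pw1 replicate 1. The suprabasal list was lower as well, at 16900.0 and 27184 CPM on the plates of 1w pw2, and so was the wound-activated keratin list, at 1438 and 2595 CPM, both without overlap with 1w pw1. Their part in this difference was not tested either. Cstdc5 was at 0.274 (log2 fold change -1.87, SE 1.24), Stfa1 at 0.272 (-1.88, SE 0.99), Stfa3 at 0.214 (-2.22, SE 0.65), Stfa2 at 0.293 (-1.77, SE 0.61), Cstdc6 at 0.186 (-2.43, SE 0.70) and Csta3 at 0.0704 (-3.83, SE 1.13). Without 1w pw1 replicate 1 they were at 0.496, 0.428, 0.311, 0.286, 0.353 and 0.299. Csta3 moved with every plate, to 0.0399 without 1w pw1 replicate 2, and to 0.118 and 0.0230 with the first and the second plate of 1w pw2 left out. All 6 had lower plates at 1w pw2 with no overlap, as 17.4% of genes did. In edgeR 0 of 6 passed, where 0% of genes did, 4 had an unadjusted p below 0.05 as against 6.01% of genes, and DESeq2 passed 0.

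The comparisons with 0w use the same 2 control plates, so they are not independent of each other.

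The share of cells that used the cluster followed the same course. A cell was called positive at an estimated count of at least 1. Any member was found in 20 of 88 and 13 of 91 cells at 0w (18.4% of both plates), 68 of 89 and 60 of 79 at 1w pw1 (76.2%), 22 of 85 and 24 of 87 at 8w pw1 (26.7%), and 54 of 86 and 60 of 91 at 1w pw2 (64.4%). With every cell thinned to 50000 counts, and the 35, 21, 53 and 27 shallower cells left out, the shares were 19.4%, 72.1%, 22.7% and 62.0%. Nothing in these data gives the share that free RNA would give, so shares of a few percent are not read as expression.

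Over both plates, Stfa3 was positive in the most cells at every time point but 8w pw1, where Cstdc5 had 36 cells and Stfa3 34. The order of these 2 genes differed between plates at 1w pw1 and 8w pw1. Stfa3 had 56 and 50 cells at 1w pw1 and Cstdc5 52 and 51, and at 8w pw1 they had 20 and 14 against 14 and 22. In time order Stfa3 was positive in 16.8%, 63.1%, 19.8% and 54.2% of cells. With cells thinned as above, it was positive in 18.1% of cells at 0w and 17.65% at 8w pw1. No order between these time points is thus read from its share, although its level was lower at 8w pw1. Cstdc5 was positive in 2.79%, 61.3%, 20.9% and 46.3% of cells, and Stfa1 in 0%, 44.6%, 8.72% and 30.5%. Cstdc6 was positive in 0.559%, 31.0%, 1.16% and 13.6%, Csta3 in 0%, 20.8%, 0.581% and 7.91%, and Stfa2 in 0%, 12.5%, 1.16% and 7.34%.

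**Figure D4:**
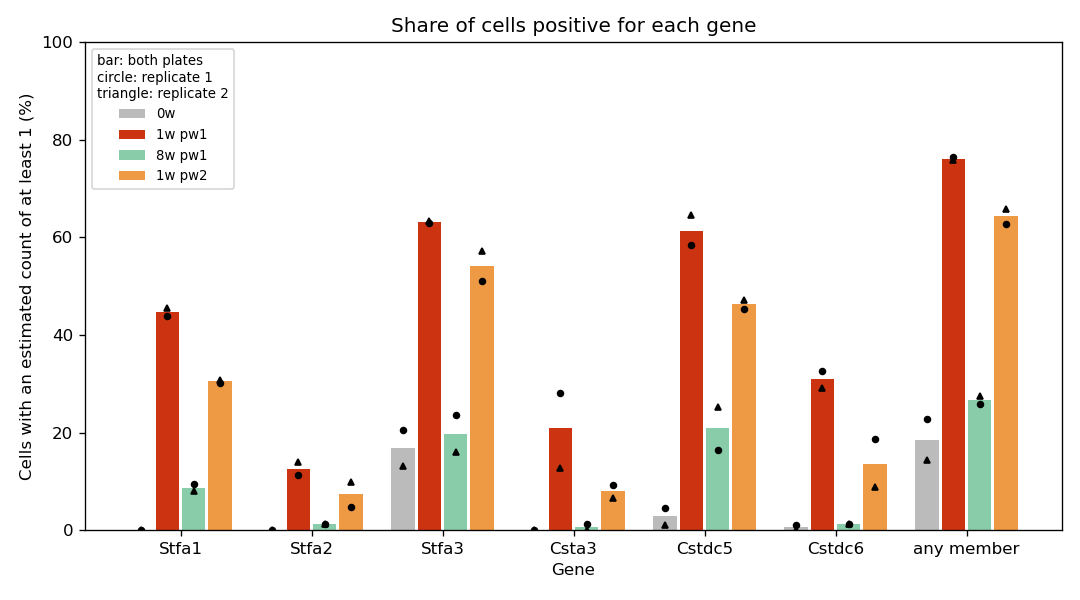
Share of cells (percent) with an estimated count of at least 1 for each gene and for any of the 6, as bars over both plates with circles for replicate 1 and triangles for replicate 2. At 0w the bar for Stfa3 stands at 16.8%, and every gene has its tallest bar at 1w pw1.

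The level in positive cells was highest at 1w pw1 for both Cstdc5 and Stfa3. In Cstdc5-positive cells the median was 1866 CPM at 1w pw1 (103 cells, 3.09 to 100845 CPM), 484 CPM at 8w pw1 (36 cells) and 404 CPM at 1w pw2 (82 cells). In the 30 Stfa3-positive cells of 0w it was 135 CPM, in the 106 of 1w pw1 624 CPM, in the 34 of 8w pw1 69.7 CPM and in the 96 of 1w pw2 157 CPM. Cells with at least 1000 CPM over the 6 genes numbered 5 and 0 on the plates of 0w, 38 and 35 at 1w pw1, 10 and 4 at 8w pw1, and 21 and 18 at 1w pw2. Counts were uneven over cells: at 1w pw1 the top cell held 8.74% and 33.0% of the summed counts, and 7 and 4 cells held 50% of them.

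Members were found together. At 0w 30 cells had 1 member, 3 had 2 and none had more. At 1w pw1 73 of 168 cells had 3 or more members and 13 had all 6; at 8w pw1 14 of 172 had 3 or more and none had all 6; at 1w pw2 48 of 177 had 3 or more and 6 had all 6. Pooled over the time points, all 36 Stfa2-positive cells had Stfa3. Of them 21 were from 1w pw1 and 13 from 1w pw2, where 63.1% and 54.2% of all cells had Stfa3, so the pooled count holds the difference between time points as well. Of the 50 Csta3-positive cells, 35 from 1w pw1 and 14 from 1w pw2, 46 had Stfa3 and 47 had Cstdc5. Of the 79 Cstdc6-positive cells 73 had Stfa3 and 72 had Cstdc5.

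The most frequent patterns among the 321 positive cells were Stfa3 alone (73 cells), Stfa3 with Cstdc5 (52) and those 2 with Stfa1 (52), then Cstdc5 alone (34). Across the 168 cells of 1w pw1, Spearman's rho was 0.84 between Stfa1 and Cstdc5, 0.79 between Stfa3 and Cstdc5 and 0.45 between Stfa3 and Csta3. At 1w pw2 (177 cells) the same pairs stood at 0.72, 0.70 and 0.24. Stfa3 and Csta3 shared no window of 75 bases with another gene, yet counts that were not whole, as divided reads give, stood in 3 of 266 Stfa3-positive and 5 of 50 Csta3-positive cells, against 128 of 144 for Stfa1 and 139 of 226 for Cstdc5. The part of shared reads in these values was not tested, and cells of a plate share its processing and differ in depth.

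**Figure D5:**
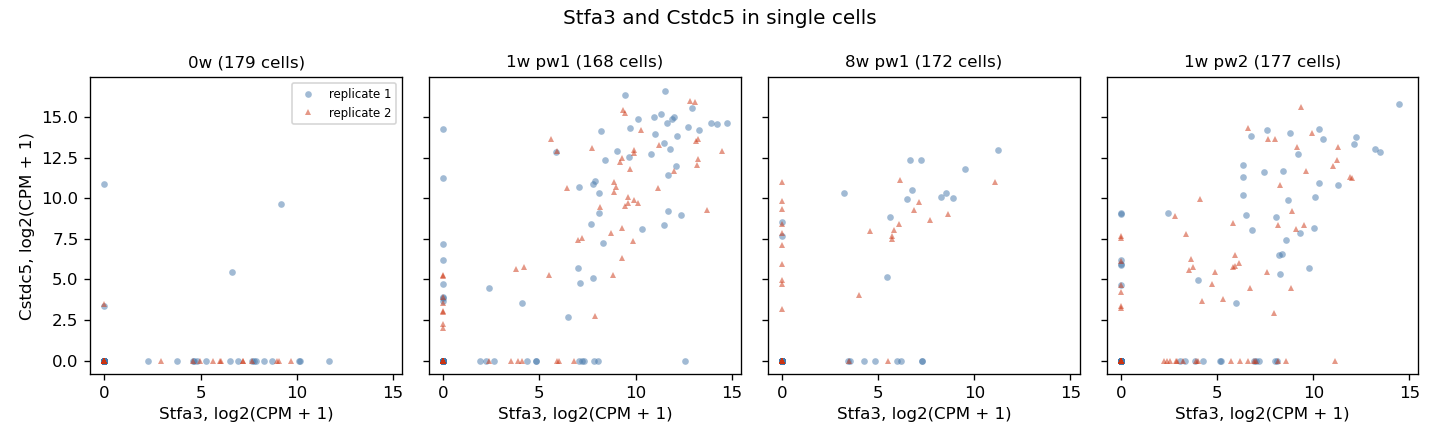
Level of Cstdc5 against Stfa3 in each cell, both as log2(CPM + 1), in a panel for each time point, with blue circles for replicate 1 and red triangles for replicate 2. At 0w most positive cells lie on the Stfa3 axis, and at 1w pw1 and 1w pw2 most lie off both axes.

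Cells with 3 or more members were high in most suprabasal genes, but not all. Summed over Krt1, Krt10, Krtdap, Sbsn, Dmkn and Calm4, genes of the differentiating layers, their median was 32460.2 CPM at 1w pw1 against 4846 CPM in the 40 cells without a member, and 27175 against 5133 CPM at 1w pw2 (48 and 63 cells). Krt1, Krt10, Krtdap, Dmkn and Calm4 each had the higher median in cells with 3 or more members at both times, as Krt10 with 12312 against 1441 CPM at 1w pw1. Sbsn went the other way, at 21.4 against 233 CPM at 1w pw1 and 51.9 against 227 CPM at 1w pw2. Krt10 or Krt1 stood above Krt14 in 46 of the 73 cells with 3 or more members at 1w pw1 and in 24 of the 40 without a member, and at 1w pw2 in 32 of the 48 and 26 of the 63. The basal list was at 3147 against 1926 CPM at 1w pw1 and at 1355 against 4296 CPM at 1w pw2. The wound-activated keratin list stood at 2389 against 57.3 CPM at 1w pw1 and 592 against 31.7 CPM at 1w pw2. Of the tail scale list, Mt4 was detected in 55 of the 73 cells against 7 of the 40 at 1w pw1, and in 38 of the 48 against 11 of the 63 at 1w pw2. The scale keratins were detected in few cells of either class, Krt36 in 2 of the 73 against 1 of the 40, and in 5 of the 48 against 8 of the 63. Krt84 was detected in 6 of the 73 against 2 of the 40, and in 2 of the 48 against 6 of the 63. The upper follicle duct list (Krt79, Gata6, Cst6 and Krt17) ran the other way, at 414 against 10280.2 CPM at 1w pw1 and 386 against 13156 CPM at 1w pw2. The granular list had a median of 0 CPM in both kinds of cell at 1w pw1, and of 6.45 against 0 CPM at 1w pw2.

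At 8w pw1 the 14 cells with 3 or more members had higher summed levels of the suprabasal and basal lists. Their median was 5622 CPM for the suprabasal list against 926 in the 126 cells without a member, and 6478 against 3271 CPM for the basal list. For the wound-activated keratin list it was 531 against 0 CPM, with any of its genes in 12 of the 14 against 53 of the 126. Krt14 was at 3754 against 1032 CPM and Krt5 at 1498 against 223 CPM, while Sbsn was at 13.0 against 42.1 CPM. Krt15 of the basal list also ran the other way, detected in 5 of the 14 against 83 of the 126, with medians of 0 against 137 CPM. Mt4 was detected in 12 of the 14 against 10 of the 126, and the upper follicle duct list stood at 14.1 against 692 CPM. Cells with 3 or more members were also deeper, with medians of 268738 against 165906 counts at 1w pw1, 142705 against 95647 8 weeks after the wound and 170781 against 114544 at 1w pw2, and the part of depth in these differences was not tested.

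At 0w 27 cells had Stfa3 and no other member. Postn was detected in 24 of them, with a median of 1274 CPM, against 63 of the 146 cells without a member, where the median was 0. Postn was placed in the bulge list here, but the paper uses it as a marker of the infundibulum in the upper hair follicle. Among other genes of that list, Krt24 was detected in 5 of the 27 against 7 of the 146, Cd34 in 6 against 30, Lhx2 in 7 against 37 and Lgr5 in 3 against 37. Krtdap was detected in 23 of the 27 against 76 of the 146 (medians of 831 against 26.7 CPM), and the suprabasal list stood at 1236 against 549 CPM. Sbsn of the suprabasal list ran the other way, detected in 16 of the 27 against 91 of the 146 (medians of 5.74 against 12.45 CPM). Krt10 was detected in 17 against 87, a like share. At 1w pw1 the 15 such cells had a median of 8963 CPM over the upper follicle duct list, near the 10280.2 CPM of cells without a member, and Krt79 was detected in 13 of them against 22 of the 73 cells with 3 or more members. At 1w pw2 the 21 such cells had 6381 CPM over that list.

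Stefins are also neutrophil genes, so neutrophil markers were read beside them. Of the 12 genes in that list 7 were in the table, and their sum was 1.46 and 4.44 CPM at 0w, 14173 and 2916 CPM at 1w pw1, 327 and 2.10 CPM at 8w pw1, and 686 and 1197 CPM at 1w pw2. S100a8, which keratinocytes also make after injury, was 12200.0 and 2635 CPM of it at 1w pw1, and S100a9 1970 and 276 CPM. The receptor gene Csf3r was at 0.0654 and 0 CPM there, Mpo at 1.18 and 0.0586 CPM, and Cxcr2 at 1.24 and 3.60 CPM. Among the 73 cells with 3 or more members at 1w pw1, S100a8 was detected in 47, S100a9, its partner, in 39, Cxcr2 in 22, Ptprc, the general leukocyte gene, in 2, and Csf3r, Camp, Mmp8 and Mpo in none. In the 40 cells without a member there S100a8 was detected in 1, S100a9 in none, Cxcr2 in 5, Ptprc in 1, Mmp8 in 4 and Mpo in 1. At 1w pw2, of the 48 cells with 3 or more members, S100a8 was detected in 36, S100a9 in 20, Cxcr2 in 9, Ptprc in 4, Mmp8 in 3, Csf3r and Mpo in 1 each and Camp in none. In the 63 cells without a member there S100a8 was detected in 7, S100a9 in 4, Cxcr2 in 9, Ptprc in 5, Mmp8 and Mpo in 2 each and Csf3r and Camp in none. The sort was for tdTomato+ cells. The part of neutrophil RNA in the stefin counts was not tested.

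The other type 1 cystatins in the table are Csta1, Csta2, Cstdc4 and Stfa2l1 of the same cluster and Cstb on chromosome 10, the stefin B gene expressed in most tissues. Csta2 was at 0.104 and 0 CPM at 0w and 24.1 and 7.04 CPM at 1w pw1, and it rose in edgeR (log2 fold change 8.01, SE 1.38, adjusted p 0.0465, range over alternatives 5.4e-07 to 0.252). Csta2 had 2 counts at 0w, and the call was lost without either plate of 0w, 1w pw1 or 1w pw2. Csta1 was at 11.6 and 0.593 CPM at 0w and 910.3 and 306 CPM at 1w pw1 (log2 fold change 6.64, SE 1.33, edgeR adjusted p 0.0672, and 0.00819 with the replicate block). Cstdc4 had a log2 fold change of 3.17 (SE 0.92) with an edgeR adjusted p of 0.187, and it is 96.9% identical to Csta2 in coding sequence, so the split between these copies is uncertain as well. Stfa2l1 had at most 19 counts on a plate and was not tested.

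Cstb stood apart in its spread over cells. In time order it was detected in 82.7%, 94.6%, 86.0% and 90.4% of cells. Its level was 72.6 and 108 CPM at 0w and 250.2 and 242 CPM at 1w pw1 (log2 fold change 1.44, SE 0.49, edgeR adjusted p 0.255). Per kilobase Cstb was at a mean of 150.0 CPM at 0w, beside 210.4 for Stfa3, and at 408 CPM at 1w pw1, beside 15419 for Cstdc5.

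The genes around these functions moved in part. Of 42 related genes tested at 1w pw1 against 0w, 4 rose in edgeR and 0 fell, where 0.527% of all genes passed in either direction: Csta2, Casp14, Sprr1b and Sprr2h. With the replicate block 8 passed, among them Csta1, Ctsc, Krtdap and Sprr1a. With any 1 plate of 0w or 1w pw1 left out, Sprr1b alone passed. Casp14, the caspase of cornifying keratinocytes, went from 2.65 and 2.37 CPM to 35.9 and 49.2 CPM (log2 fold change 4.08, SE 0.69, adjusted p 0.0370, range 8.29e-08 to 0.204) and was the only 1 of 9 cysteine proteases to pass, the rest being cathepsins and legumain.

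Of 25 cornified envelope genes Sprr1b and Sprr2h passed, both encoding small proline-rich proteins that are cross-linked into the envelope. Sprr1b went from 0 and 0.432 CPM to 434 and 503 CPM (edgeR log2 fold change 11.05, SE 1.34, adjusted p 0.0127, range 4.04e-29 to 0.0488). Sprr2h went from 0 and 0.0539 CPM to 44.5 and 28.7 CPM (log2 fold change 10.07, SE 1.45, adjusted p 0.0197, range 3.69e-08 to 0.123). The median log2 fold change of the 25 was 1.24 against -0.04 over all genes, and 23 of them (92.0%) were higher against 48.2% of all genes. The 4 cystatins of types 2 and 3 had none that passed.

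At 1w pw2 against 0w Sprr1b was the related gene that rose, to 399 and 316 CPM (edgeR log2 fold change 10.66, SE 1.32, adjusted p 0.0182, range 1.08e-26 to 0.0976), and the replicate block passed 7 and DESeq2 13. The call on Sprr1b was lost without either plate of 0w. In the remaining comparisons edgeR passed 0 of the 42. At 8w pw1 against 0w 10 had an unadjusted p below 0.05, as had 6.47% of genes, and DESeq2 passed 1. The step from 8w pw1 to 1w pw2 gave 10 (7.94% of genes) and 6, and that between the wounds 5 (6.01% of genes) and 1. The replicate block passed 1 of the 42, Sprr1b, at 1w pw2 against 8w pw1.

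Within 500 kb of its ends, 14 neighbouring genes that are no cystatins were tested, and at 1w pw1 against 0w Fam162a passed, 1 of 14, where 0.527% of all genes did. Nothing particular to the neighbours is read from so few genes. Fam162a, which encodes a mitochondrial protein induced in low oxygen, was at 44.2 and 89.5 CPM at 0w and 683 and 757 CPM at 1w pw1 (edgeR log2 fold change 3.43, SE 0.51, adjusted p 0.0215, range 7.26e-08 to 0.151), and the call was lost without any plate of either group. Log2 fold changes of the other 13 lay between -0.95 for Iqcb1 and 0.72 for Slc49a4. At 1w pw2 against 0w 0 of the 14 passed in edgeR, with 2 at an unadjusted p below 0.05 (Fam162a and Ccdc58), as had 12.6% of genes. Fam162a was at 82.1 and 72.0 CPM at 8w pw1 and 192 and 165 CPM at 1w pw2.

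The genes most like the cluster across cells were sought by Spearman's rho with the summed level of the 6, as log2(CPM + 1) over all 696 cells, among 11048 genes detected in at least 50 cells, where the median rho was 0.04. Csta1 led with 0.68, followed by Ly6a (0.65), 2610528A11Rik (0.64), Tdh (0.64), Sprr2a2 (0.62), Ces2g (0.61), Mt4 (0.61), Krt1 (0.61), Fabp5 (0.59) and Fam162a (0.58). Ly6a encodes the surface protein Sca-1, Tdh threonine dehydrogenase, Mt4 a metallothionein, Krt1 a suprabasal keratin and Fabp5 the epidermal fatty acid binding protein. Within time points, in order, Csta1 stood at 0.24, 0.82, 0.62 and 0.64, and Fabp5 at 0.05, 0.74, 0.25 and 0.64. Each had its lowest rho at 0w except 2610528A11Rik, for which none could be computed there. These values are taken over cells that share 8 plates and differ in depth, and they carry no test.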

How the data were processed

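The authors deposited a table of expected counts, estimated per gene and cell with Salmon 0.13.1 on the Ensembl mouse transcriptome (GRCm38, mm10) from 75-base single-end reads, with no normalization. They had removed cells under 1000 genes or over 50% mitochondrial reads. Salmon divides reads among transcripts they fit, so counts of near-identical copies need not be whole.

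Counts were summed per plate, rounded and tested with edgeR 4.0.16 (R 4.3.3; TMM scaling, filterByExpr, quasi-likelihood test, all 8 plates, Benjamini-Hochberg adjustment over 13853 genes), at an adjusted p below 0.05 and a fold above 2. The study tested single cells, which are not replicates. A simulation with known folds was used to test the script. DESeq2 1.42.0 was an alternative, with others named in the closing section. CPM used TMM library sizes. Gene models were GENCODE M21, matched through RefSeq identifiers, as the table's symbols Csta3, Cstdc5 and Cstdc6 are Gm5416, BC100530 and BC117090 there. The authors counted on another Ensembl release, so lengths and shared windows here may differ from those behind their counts. Windows followed RefSeq starts.

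Plates with the same replicate number deviated together in all 6 pairs of time points (r from 0.299 to 0.453), so the plates may be paired by number. What plates of a number share is not labelled. The main edgeR fit left the number out, and the replicate block took it in.

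Members and lists were chosen with earlier results of these data known. Named genes were the 6 members, neighbours within 500 kb, the other type 1 cystatins, up to 4 called related genes per comparison and the 10 genes with the highest rho.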

Additional observations from a re-analysis of the deposited data

How the results depend on the processing

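Members past the threshold numbered 6 at 1w pw1 against 0w in each alternative with all plates, apart from equal scaling of every cell (5), and 2 to 6 with a plate left out. Against 0w at 8w pw1 there were 0, but 1 with DESeq2 and 1 with equal scaling (0 to 1 with a plate left out). At 1w pw2 against 0w there were 3, but 6 with DESeq2 and 5 with the replicate block (0 to 3 with a plate left out). At 1w pw2 against 8w pw1 there were 0, but 5 with DESeq2, 3 with the replicate block and 2 without the filter on low counts (0 to 2 with a plate left out). Between the wounds no alternative passed any. Related genes past the threshold at 1w pw1 against 0w numbered 4, but 11 with DESeq2, 8 with the replicate block and 1 with equal scaling (1 to 4 with a plate left out). At 8w pw1 against 0w they numbered 0, or 1 with DESeq2. At 1w pw2 against 0w they numbered 1, but 13 with DESeq2, 7 with the replicate block and 2 without the filter (0 to 2 with a plate left out). At 1w pw2 against 8w pw1 they numbered 0, but 6 with DESeq2, 1 with the replicate block and 1 without the filter (0 to 1 with a plate left out), and between the wounds 0, or 1 with DESeq2. The replicate block changed no other call of these counts. The summed level of the members at 0w was 31.2 CPM without the top cell of each plate, and at 1w pw2 it was 2949 CPM as a mean over cells and 2701 CPM without the top cells. With a plate left out it is that of the other plate, 78.7 to 105.2 CPM at 0w, 7953 to 19415 at 1w pw1, 96.1 to 461 at 8w pw1 and 3484.6 to 3620.5 at 1w pw2. The share of positive cells was 12.3%, 59.5%, 19.8% and 49.7% in time order at a minimum count of 5, and thinning gave 72.1%, 22.7% and 62.0% at the 3 later time points. By plate it ran from 14.3% to 22.7%, 75.95% to 76.4%, 25.9% to 27.6% and 62.8% to 65.9%. The causes were not tested. The median log2 fold change of all genes between the wounds was 0.09, and 0.12 with upper quartile scaling. With the first and the second plate of 1w pw1 left out it was 0.15 and 0.17. The alternatives that summed near-identical copies or dropped top cells were chosen after seeing the data. With 2 plates a group, and 0 to 3 counts for several members at 0w or 8w pw1, the size of their folds is poorly set.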
